A study of Mus musculus with 12 samples.

Results

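The genes described here build and run the protein entry route of the endoplasmic reticulum (ER): the translocon and signal peptidase, the oligosaccharyltransferase, the folding enzymes and chaperones, the regulators of the ER stress response, and the factors of ER-associated degradation. They were chosen by name, and each was read from 1 probe set, the one among those listed with that gene alone whose mean across the 12 arrays was highest. Of 46 listed genes, 44 had such a probe set, and all 44 were among the 13074 genes tested; Sec11a and Sec61g were not analysed here. They comprised 12 translocon and signal peptidase genes, 6 oligosaccharyltransferase genes, 15 folding genes, 5 stress regulators and 6 degradation genes. A gene was tested if it lay at or above the array median on at least 3 arrays, and 41 of the 44 did so on every array. The exceptions were Xbp1, on 11 arrays, and Ern1 and Edem1, on 9 each.

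The data were 12 Affymetrix MG-430 PM arrays of liver and brain from male BALB/c mice aged 10 weeks, 1 array for each combination of tissue, preservation and time after death. Formalin-fixed paraffin-embedded (FFPE) liver and brain were fixed for 24 h in 10% formalin, kept as blocks for 7 d at room temperature, cut at 10 µm and labelled with the WT-Ovation FFPE kit. Fresh-frozen (FF) liver and brain went into RNAlater, and their RNA was isolated on RNeasy Mini columns and labelled with the 3' IVT Express kit. Each of these 4 series had an array at 0 h, after 3 h at room temperature and after 18 h at 4 °C. Preservation and kit cannot be told apart, nor can time and temperature, and the labels do not say how many animals were used or whether arrays share an animal.

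A secretory or membrane protein enters the ER through the Sec61 channel, loses its signal peptide to the signal peptidase, and receives its sugar chain from the oligosaccharyltransferase while it is still being made. Lectins, disulfide isomerases and the Hspa5 (BiP) chaperone system then fold it, and chains that fail are sent back to the cytosol for degradation. When unfolded protein builds up, the sensors Ern1 (IRE1) and Atf6 and the factors Xbp1, Atf4 and Ddit3 (CHOP) raise the transcription of these genes. Hepatocytes secrete most plasma proteins and are rich in rough ER.

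Several of these genes share a promoter element, the ER stress response element (ERSE), in which CCAAT and CCACG are separated by any 9 bases. It was searched on both strands in the RefSeq promoters (GRCm38.p6), which run from 250 bases before to 50 after each start site. A promoter was held for 38 of the 46 listed genes, and 8 of these genes had an exact match (21.1%), against 37 of 27025 genes in the whole table (0.137%). The stretches below show the match in capitals within its neighbouring bases, read 5′ to 3′ along the strand of the gene; the capitals read as the reverse complement where the match lies on the other strand. The first 4 genes are those whose transcript fell in liver at 18 h, and the other 4 are those that did not pass the test there.
Hspa5 (chr2:34772015-34772054, plus strand): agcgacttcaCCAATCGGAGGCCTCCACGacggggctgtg
Pdia6 (chr12:17266481-17266520, plus strand): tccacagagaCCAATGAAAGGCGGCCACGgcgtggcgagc
Canx (chr11:50325789-50325828, minus strand): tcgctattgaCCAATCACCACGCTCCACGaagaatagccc
Creld2 (chr15:88819510-88819549, plus strand): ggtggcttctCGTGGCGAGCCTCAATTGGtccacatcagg
Calr (chr8:84847064-84847103, minus strand): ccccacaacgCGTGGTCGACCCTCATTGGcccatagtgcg
Hsp90b1 (chr10:86705522-86705561, minus strand): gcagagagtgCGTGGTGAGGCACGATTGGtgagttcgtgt
Dnajc3 (chr14:118937817-118937856, plus strand): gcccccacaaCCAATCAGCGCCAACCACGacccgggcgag
Syvn1 (chr19:6046522-6046561, plus strand): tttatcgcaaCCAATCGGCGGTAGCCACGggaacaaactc
Hsp90b1 had a further match, on the gene's own strand, that began 212 bases before the start site. The related ERSE-II, in which ATTGG and CCACG are separated by any 1 base, matched in Dnajb11 alone among these genes (12 of 27025 genes in the whole table, 0.044%), and the letters TGACGTGG matched in none (0.714% of all genes). The letters TGATGNAA, searched for targets of Atf4, also matched in none (4.51% of all genes). A CCAAT box, CCAAT, stood in 30 of the 38 genes (41.1% of all genes); it is part of every ERSE, and its reverse complement opens every ERSE-II. These are matches of letters in a fixed window, not measured sites.

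The arrays matched their tissue labels. The 4 neuron markers summed to 139 to 152 linear intensity units in FFPE liver and 183 to 235 in FF liver, against 7727 to 8168 in FFPE brain and 11070 to 11398 in FF brain. The 7 hepatocyte markers summed to 37070 to 38052 in FFPE liver and 42008 to 42577 in FF liver. Albumin (Alb) in FF brain was 8.74 log2 intensity at 0 h, 6.11 at 3 h and 5.53 at 18 h, so the 0 h brain array carried more of this liver transcript than the later ones. As these are bulk samples, fewer cells of a type and less RNA per cell cannot be told apart. Each condition had 1 array, so a p-value below measures the spread between arrays after fitted effects of series and time, not the spread between animals.

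After 18 h, transcripts of the ER entry route were lower in liver. Of the 44 genes, 18 fell against 0 h, where 10.9% of all genes tested fell, and 1 rose, where 3.61% of all genes rose (limma, adjusted p below 0.05, 2 arrays at each time). Their median log2 difference was -0.41, and the median of all genes was -0.02; the members' median was -0.21 with quantile normalization of the arrays, and -0.22 without either the FFPE 0 h or the FFPE 18 h liver array. On the chosen probe sets the falls were in the translocon and signal peptidase (7 of 12), the oligosaccharyltransferase (3 of 6) and the folding enzymes (7 of 15), with Xbp1 the only stress regulator to fall (1 of 5) and no degradation gene doing so (0 of 6). With quantile normalization 11 were lower, where 8.04% of all genes were lower, and 5 were higher, where 4.57% were higher, the risers being Ern1, Sec61a1, Sel1l, Stt3a and Syvn1. Of the 19 calls, 9 held in all 17 alternative settings.

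**Figure D1:**
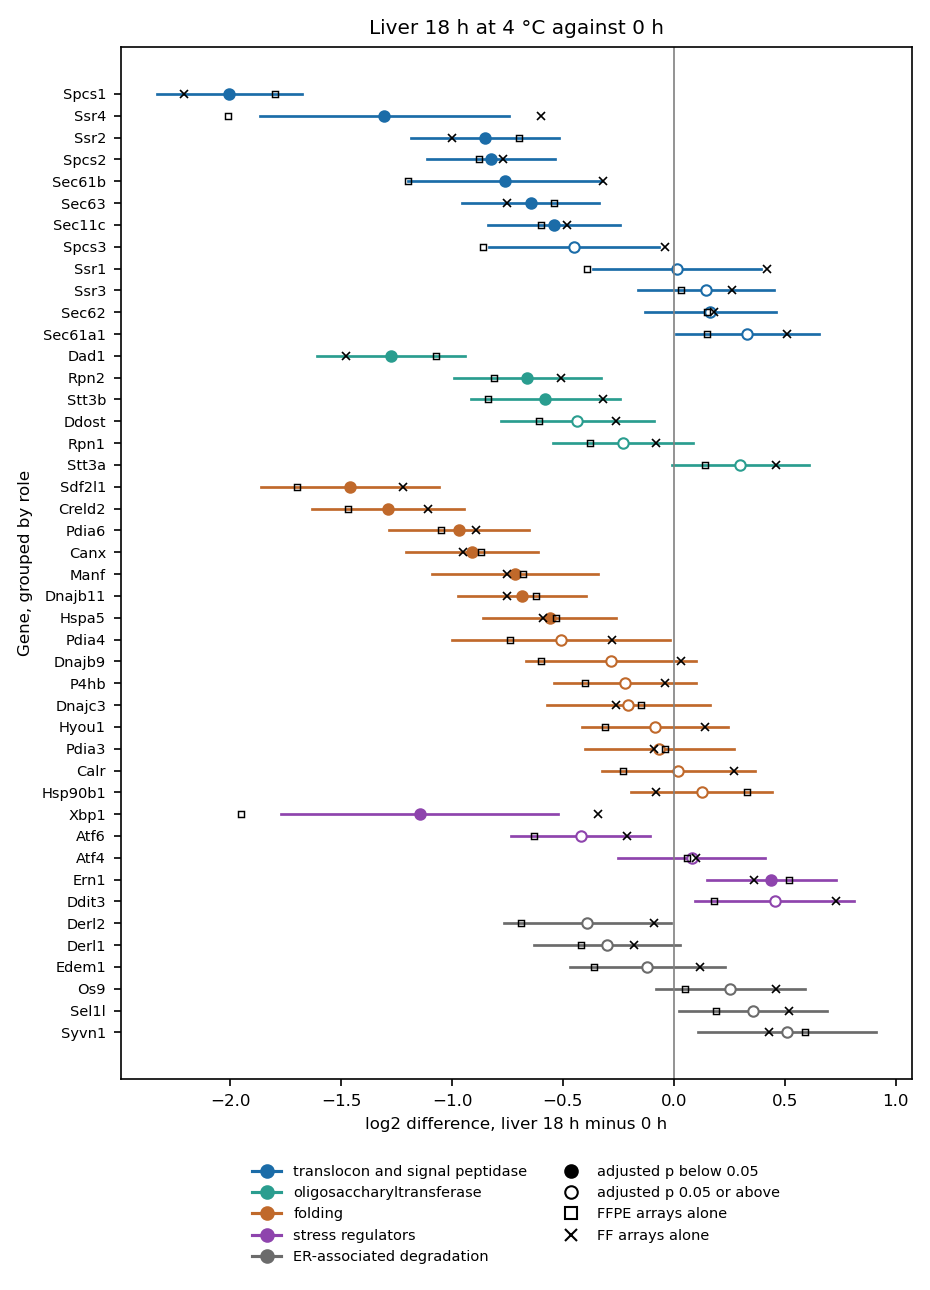
Log2 difference between liver arrays at 18 h and at 0 h for the 44 genes, grouped by role; circles are limma estimates with 95% confidence intervals (filled where adjusted p is below 0.05), squares the FFPE arrays alone and crosses the FF arrays alone. Spcs1, at -2.01, lies farthest to the left, and the degradation genes lie on both sides of 0 with no filled circle.

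The signal peptidase cuts signal peptides from entering chains. Spcs1, an accessory subunit, had 9.03, 8.31 and 7.23 log2 intensity in FFPE liver at 0, 3 and 18 h. In FF liver it had 9.97, 9.33 and 7.76. Both liver series were lower at each later time, and both 18 h arrays lay below every earlier liver array. Its log2 difference at 18 h was -2.01 ± 0.15 (SE, n = 2 arrays at each time), a fold of 0.249, with adjusted p = 2.7e-05 by limma. In FFPE brain Spcs1 had 7.22, 7.03 and 6.99, and in FF brain 10.06, 9.90 and 9.91. The brain series moved by far less than the liver series. Spcs2, a further accessory subunit, had 9.49, 9.07 and 8.61 in FFPE liver and 9.55, 9.07 and 8.78 in FF liver. It was lower at each later time in both series and fell by 0.83 (adjusted p = 0.0017). Sec11c, a catalytic subunit, fell by 0.54; its call was lost in 5 of 17 alternative settings, among them quantile normalization (adjusted p = 0.163), liver arrays alone, and leaving out the FFPE 0 h, FFPE 18 h or FF 0 h liver array. Spcs3, the remaining subunit measured, differed by -0.45 with adjusted p = 0.115 and did not pass; its FFPE arrays differed by -0.86 and its FF arrays by -0.04.

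On the chosen probe sets the translocon itself was split. Sec61b, the small beta subunit of the channel, fell by 0.76 and Sec63, a partner that recruits Hspa5 to the channel, fell by 0.65. Without the FFPE 18 h liver array Sec61b differed by -0.34 and did not pass (limma, adjusted p = 0.253), and its call was also lost without the FFPE 0 h liver array, with liver arrays alone and with quantile normalization. That of Sec63 was lost with quantile normalization and without the FFPE 0 h, FF 0 h or FF 18 h liver array. Sec61a1, the pore-forming subunit, had 10.92, 10.84 and 11.07 in FFPE liver and 9.98, 10.12 and 10.49 in FF liver. Its 18 h array was the highest in each series, and the difference of 0.33 did not pass (adjusted p = 0.172). Sec61a1 fell on a probe set that was not chosen, so its direction depends on the probe set. Sec62, the other partner of Sec63, differed by 0.17 and did not pass.

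The translocon-associated protein complex (Ssr1 to Ssr4) sits beside the channel and helps some chains to enter. Ssr4 had 9.67, 9.28 and 7.66 in FFPE liver at 0, 3 and 18 h, against 10.47, 10.31 and 9.87 in FF liver. The 18 h array was the lowest of each series, and the drop was larger in FFPE, at -2.01, than in FF, at -0.60. The fitted fall was 1.31 (SE 0.26, adjusted p = 0.0054). Ssr2 had 7.70, 7.43 and 7.00 in FFPE liver and 8.31, 8.01 and 7.31 in FF liver, a steady decline in both, and fell by 0.85 (adjusted p = 0.0032). Ssr1 had 9.11, 8.91 and 8.72 in FFPE liver and 9.36, 9.45 and 9.78 in FF liver. Its series moved in opposite directions, and neither Ssr1 at 0.02 nor Ssr3 at 0.15 passed, though Ssr1 fell on a probe set that was not chosen. The call for Ssr4 was lost with the mean of its probe sets (-0.25) and without the FFPE liver 0 h array (adjusted p = 0.0904).

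The oligosaccharyltransferase adds the sugar chain. Dad1, a small subunit named for defender against cell death, had 8.59, 8.01 and 7.52 in FFPE liver and 10.11, 9.51 and 8.63 in FF liver. Each later array was lower than the one before it in both series. Dad1 fell by 1.28 (SE 0.15, adjusted p = 3.0e-04). Rpn2, a structural subunit, had 8.35, 8.29 and 7.54 in FFPE liver and 8.84, 8.68 and 8.33 in FF liver, and fell by 0.66. Stt3b, a catalytic subunit used in place of Stt3a for some chains, had 7.84, 7.75 and 7.00 in FFPE liver and 8.96, 9.05 and 8.64 in FF liver, and fell by 0.58. Both were lowest at 18 h in each series; with quantile normalization neither passed (adjusted p = 0.0701 for Rpn2 and 0.079 for Stt3b), nor did they without the FFPE 0 h or FFPE 18 h liver array. Rpn2 was also lost without the FF 0 h liver array, and Stt3b with liver arrays alone. Stt3a, the catalytic subunit that works with the channel as the chain enters, had 9.36, 9.26 and 9.50 in FFPE liver and 9.79, 10.00 and 10.25 in FF liver. It was highest at 18 h in both series, and its difference of 0.30 did not pass (adjusted p = 0.198). Ddost at -0.44 and Rpn1 at -0.23, both structural subunits, did not pass; Rpn1 had 8.56, 8.71 and 8.18 in FFPE liver and 8.38, 8.58 and 8.30 in FF liver.

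Of the 15 folding genes, Sdf2l1 and Creld2 had the largest falls. Sdf2l1, a partner of the ER chaperones, had 8.74, 8.71 and 7.04 in FFPE liver and 9.0, 8.55 and 7.78 in FF liver. Creld2, an ER stress-induced protein, had 8.91, 8.88 and 7.44 in FFPE liver and 9.62, 9.48 and 8.51 in FF liver. In both genes the 18 h arrays stood below all earlier liver arrays, and in FFPE liver the 3 h array was close to that at 0 h. Sdf2l1 fell by 1.46 (SE 0.19, adjusted p = 4.0e-04) and Creld2 fell by 1.29 (SE 0.16, adjusted p = 3.1e-04).

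Hspa5, the central chaperone, had 10.87, 10.84 and 10.34 in FFPE liver and 11.21, 11.20 and 10.62 in FF liver. The 0 h and 3 h arrays were nearly level in each series, and the 18 h array was lower. Hspa5 fell by 0.56 (SE 0.14, adjusted p = 0.017). Dnajb11, its co-chaperone, fell by 0.69, and Manf, a secreted factor induced by ER stress, fell by 0.72. The call for Hspa5 was lost in 5 of 17 alternative settings, with quantile normalization (adjusted p = 0.0634), with liver arrays alone (adjusted p = 0.0609), and without the FFPE 0 h, FF 0 h or FF 18 h liver array. Manf was lost in 4 of these, all but liver arrays alone. Of the other Hspa5 partners, Dnajb9 at -0.29, Dnajc3 at -0.21 and Hyou1, its nucleotide exchange factor, at -0.09 did not pass. Hsp90b1, the ER member of the HSP90 family, differed by 0.13 and did not pass.

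The lectin chaperones parted as well. Canx, the membrane-bound lectin, fell by 0.91 (adjusted p = 0.0011), with 9.69, 9.71 and 8.82 in FFPE liver and 10.37, 10.22 and 9.42 in FF liver. Calr, its soluble relative, differed by 0.02 and did not pass, with 9.99, 9.88 and 9.76 in FFPE liver and 10.67, 10.83 and 10.94 in FF liver. Of the disulfide isomerases, Pdia6 had 9.56, 9.19 and 8.51 in FFPE liver and 10.22, 10.02 and 9.33 in FF liver, lowest at 18 h in both, and fell by 0.97 (adjusted p = 0.0011). Pdia4 at -0.51, P4hb at -0.22 and Pdia3 at -0.07 did not pass. The chosen probe set of Pdia3 was dim on every array, at 5.01 to 5.73 against array medians of 4.65 to 4.88.

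The stress regulators did not move as a group. Xbp1 had 9.49, 9.17 and 7.54 in FFPE liver and 10.70, 10.51 and 10.36 in FF liver. On the chosen probe set, most of its fall of 1.15 came from the FFPE array at 18 h. That array differed by -1.95 from 0 h, against -0.34 in FF. Without that array the difference was -0.37 and did not pass (adjusted p = 0.159), and the call was also lost without the FFPE 0 h liver array and with liver arrays alone. Ern1, the sensor that splices Xbp1 RNA, rose by 0.44 (SE 0.13, adjusted p = 0.0455), with 6.57, 6.97 and 7.09 in FFPE liver and 8.07, 8.36 and 8.43 in FF liver. Its call held in 3 of 17 alternative settings and in none of the 12 that left out an array. Ddit3 had 6.70, 6.75 and 6.88 in FFPE liver and 5.71, 6.24 and 6.44 in FF liver; its difference of 0.46 did not pass (adjusted p = 0.0899). Atf4, with 8.04, 8.24 and 8.10 in FFPE liver and 8.70, 8.50 and 8.80 in FF liver, differed by 0.08 and did not pass, nor did Atf6 at -0.42. Another probe set of Xbp1 had 9.62, 9.25 and 8.6 in FFPE liver and 9.75, 9.38 and 8.65 in FF liver. A further one had 8.74, 8.71 and 8.43 in FFPE liver and 9.33, 9.22 and 8.63 in FF liver. Both were lower at each later time in both series. The last had 9.58, 9.39 and 9.05 in FFPE liver, but rose in FF liver, with 6.7, 7.12 and 7.17. Whether a probe set reads the spliced form of Xbp1 was not analysed here.

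No degradation gene passed in liver at 18 h (limma, 0 of 6, of which 3 had an unadjusted p below 0.05) on the chosen probe sets, but Derl1, Edem1 and Sel1l fell on others. On the chosen ones, Syvn1, the ubiquitin ligase of the main degradation complex, differed by 0.51, its partner Sel1l by 0.36 and the lectin Os9 by 0.26. Derl2 and Derl1, proteins of the exit channel, differed by -0.39 and -0.30, and Edem1, which marks misfolded glycoproteins, by -0.12. The other 4 probe sets of Sel1l ran the other way, at -0.66 to -1.08, both other ones of Derl1 lay at or below -0.82, and that of Edem1 at -0.52. Edem1 had 7.08, 7.25 and 6.72 in FFPE liver and 7.69, 7.87 and 7.81 in FF liver, with no common direction. The adjusted p of Syvn1 was 0.0898.

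**Figure D2:**
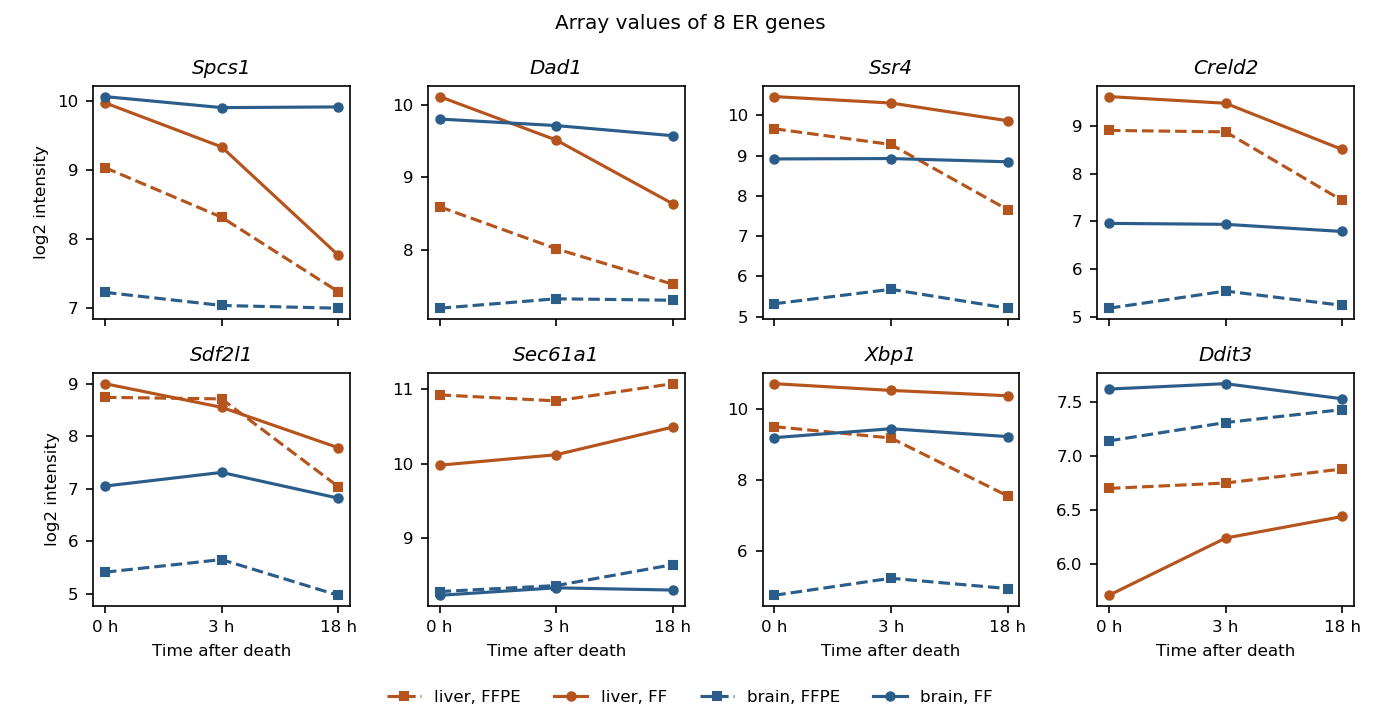
Log2 intensity of 8 genes on the 12 arrays at 0, 3 and 18 h after death (times spaced evenly); squares with dashed lines are FFPE, circles with solid lines FF, orange liver and blue brain. In liver Spcs1, Dad1, Ssr4, Creld2, Sdf2l1 and Xbp1 end below their 0 h value in both preservations, while Sec61a1 and Ddit3 end above it.

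Neighbouring steps of the pathway were read from longer lists, whose counts stand beside the 10.9% of all genes that fell. Among the signal recognition particle and its receptor, 1 of 6 genes fell in liver at 18 h, Srp14 (-0.97). In the COPII coat, which carries proteins out of the ER, 1 of 11 fell, Sar1b (-0.91). Among further ER oxidoreductases and chaperones 3 of 13 fell, namely Tmx1 (-0.75), Erp29 (-0.64) and Ppib (-0.49). Among further degradation factors 1 of 11 fell, Selenos (-1.04). None of 10 targets of Atf4 and Ddit3 passed, with a median difference of 0.08; 3 of them had an unadjusted p below 0.05.

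Other measures moved with time in liver. Gapdh has control probe sets at both ends of its transcript, and the 3' one exceeded the 5' one by 1.04, 1.63 and 1.77 log2 units in FFPE liver at 0, 3 and 18 h, against 0.03, 0.82 and 1.14 in FF liver. In brain this excess stayed within 0.07 of its 0 h value. The same excess for Actb was -0.12, -0.01 and -0.18 in FFPE liver and 1.09, 2.00 and 1.90 in FF liver. Of the cell type markers in liver at 18 h, 0 of 7 hepatocyte markers passed (median -0.04), all 4 tested stellate cell markers rose and 3 of 8 Kupffer cell markers fell. Of 4 endothelial markers tested 1 rose (Kdr), of 3 plasma cell and B cell markers 1 rose (Jchain), and of 2 erythroid markers 1 rose (Hba-a1). The 5 stellate cell markers summed to 704, 636 and 1157 linear intensity units in FFPE liver and to 1507, 1449 and 2956 in FF liver. The 8 Kupffer cell markers summed to 1246, 495 and 754 in FFPE liver and to 2252, 970 and 1942 in FF liver. The 5 endothelial markers summed to 707, 431 and 755 in FFPE liver and to 1225, 792 and 1697 in FF liver. Their part in the falls of the ER genes was not tested.

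Probe sets of the same gene often differed. Of 88 probe sets of these genes tested in a fit of 20791 probe sets, 36 fell and 3 rose in liver at 18 h, where 14.2% of all probe sets passed in either direction. In 9 of the 26 genes with several tested probe sets, the differences had both signs. Spcs1 had -2.01 and -2.10, Canx and Hspa5 fell on both of theirs, and Xbp1 fell on 3 of its 4. Sel1l had 0.36 on the chosen probe set, which did not pass, and falls of -0.66 to -1.08 on the other 4. Dnajc3 had -0.21 on the chosen one and -1.52 on another, which passed. Ssr4 passed in opposite directions, at -1.31 on the chosen probe set and 0.55 on another. Besides Sel1l and Dnajc3, 4 genes fell only on a probe set that was not chosen: Derl1, Edem1, Sec61a1 and Ssr1.

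**Figure D3:**
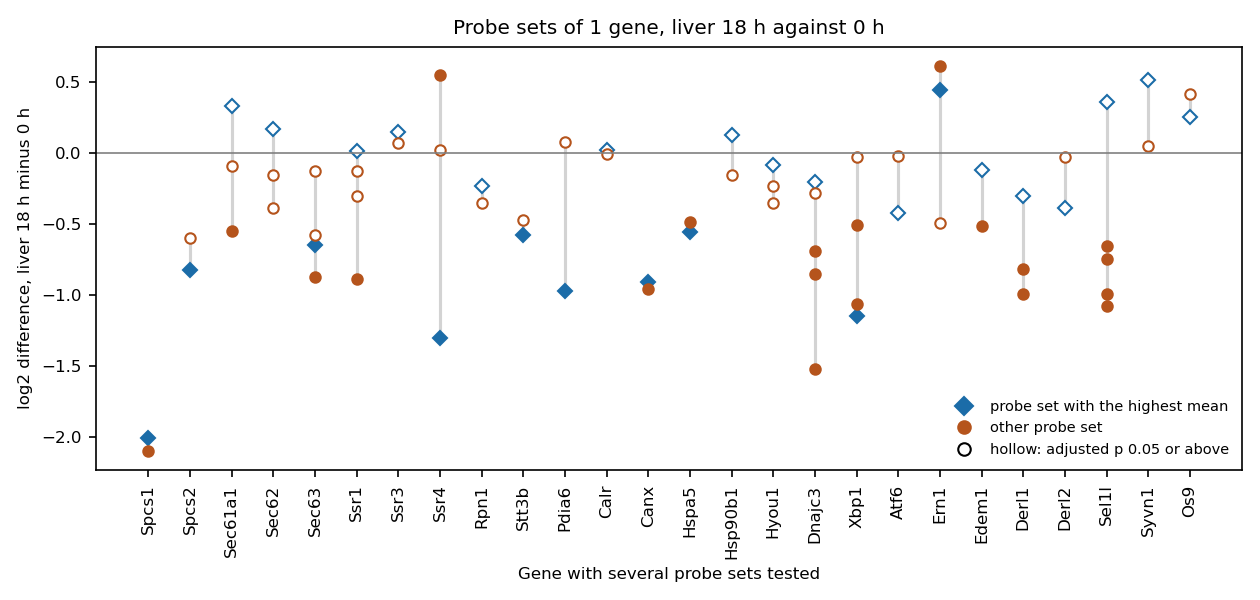
Log2 difference between liver arrays at 18 h and at 0 h for each probe set of the 26 genes with several tested; blue diamonds are the probe set with the highest mean, orange circles the others, and hollow symbols did not pass. The 2 probe sets of Spcs1 lie together near -2, whereas those of Ssr4, Sel1l and Sec61a1 lie on both sides of 0.

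Genes with and without the promoter element were then set side by side in liver, on the calls of the chosen probe sets. At 18 h, 4 of the 8 genes with an ERSE fell, with a median difference of -0.38. Of the 28 tested genes with a promoter and no ERSE, 11 fell and 1 rose, with a median of -0.34. Hspa5, Pdia6, Canx and Creld2 fell, whereas Calr, Hsp90b1, Dnajc3 and Syvn1, whose elements are shown beside theirs, did not pass. Of the 4 that fell, Hspa5 lost its call in the settings named above, and Dnajc3 fell on a probe set that was not chosen.

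At 3 h at room temperature no gene passed in liver (limma, 0 of 44, where 0.245% of all genes passed in either direction), and 6 had an unadjusted p below 0.05. The largest differences were already in genes that were lower at 18 h. Spcs1 differed by -0.68 (adjusted p = 0.119), Dad1 by -0.59 (adjusted p = 0.18) and Sec63 by -0.54 (adjusted p = 0.185). Hspa5 at -0.02, Canx at -0.07 and Creld2 at -0.09 were close to their 0 h level. The later times share the 0 h arrays.

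From 3 h to 18 h, 13 genes fell in liver, where 7.58% of all genes fell, and none rose. The 6 folding genes among them were Canx, Sdf2l1, Creld2, Pdia6, Hspa5 and Dnajb11. Spcs1 fell by 1.33 (SE 0.15, adjusted p = 5.6e-04), Creld2 by 1.21 and Sdf2l1 by 1.22. Spcs1 and Creld2 passed in all 17 alternative settings. The count was 2 without the FFPE liver 3 h array and 4 without the FF liver 3 h array. Over the same interval 6 of 8 Kupffer cell markers, all 4 tested endothelial markers and all 4 tested stellate cell markers rose, and 0 of 7 hepatocyte markers passed (median 0.02); their part in the falls was not tested.

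The decline in liver was seen in both preservations. In FFPE liver 33 of 44 genes were below their 0 h array at 18 h, 8 of them at least 2-fold lower. Their median difference was -0.57 (all genes -0.04). In FF liver 29 of 44 were below it, 5 at least 2-fold lower, with a median of -0.20 (all genes -0.02). Of the 44, 28 were below in both and 10 above in both. A further 5 were below in FFPE and above in FF, and 1 was the reverse. Of all 13074 genes tested, 4342 were below in both and 3454 above in both. A further 2712 were below in FFPE and above in FF, and 2245 were the reverse. The counts of genes at least 2-fold lower were not made for all genes. Across the 44 genes the FFPE and FF differences at 18 h had a Pearson r of 0.756, against 0.473 across all genes tested. Genes on the same 4 arrays are not independent, so these values are descriptions.

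**Figure D4:**
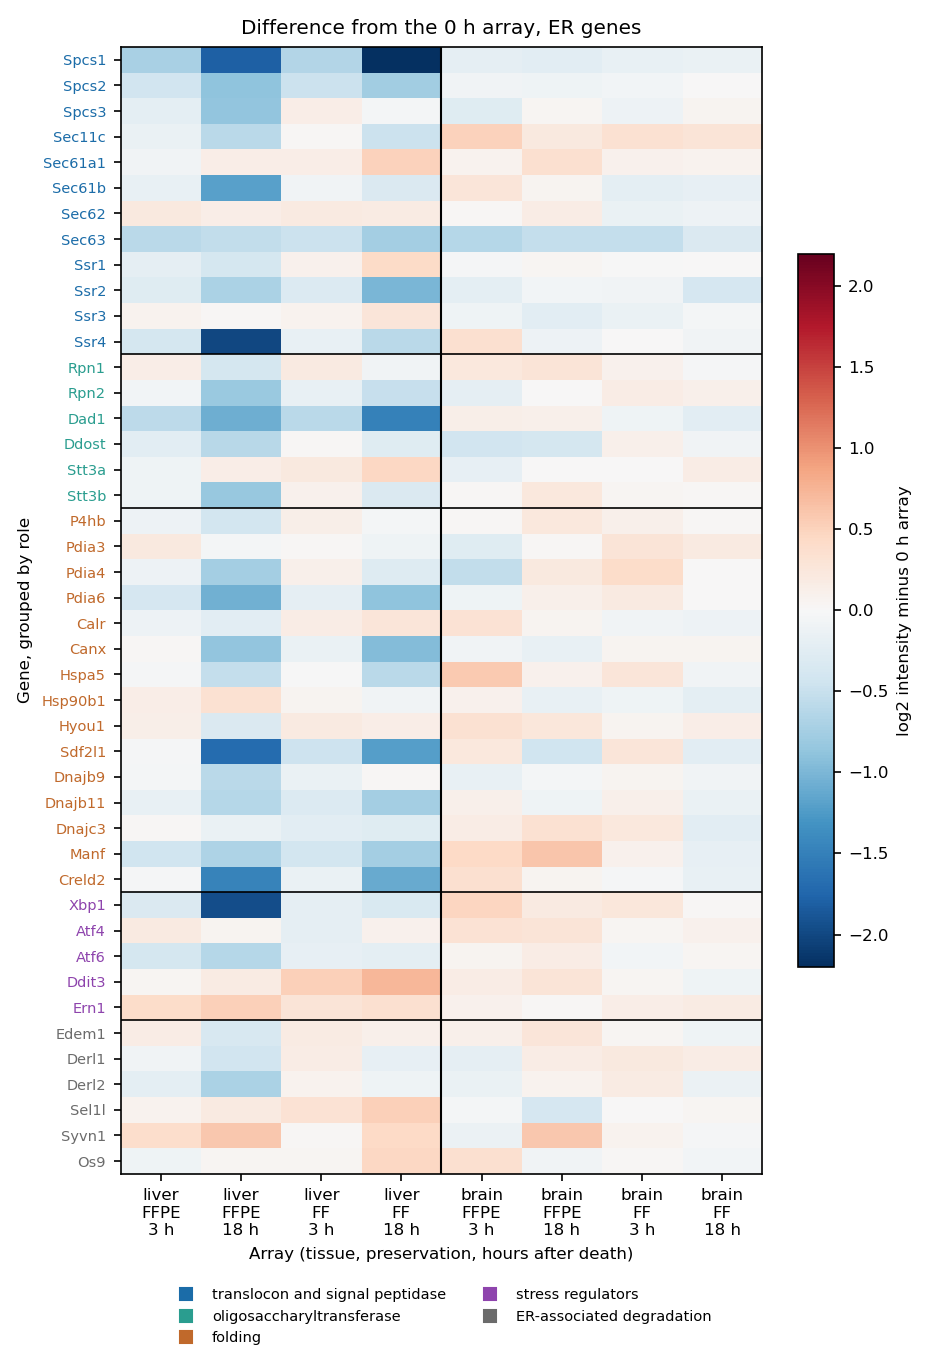
Log2 difference from the 0 h array of the same tissue and preservation, for 44 genes (rows, coloured by role) on the 8 later arrays; blue is lower and red higher than 0 h. The FFPE and FF liver columns at 18 h hold the darkest blue cells, among them Spcs1, Dad1, Sdf2l1 and Creld2, and the brain columns are pale.

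In brain, no gene passed at either time. At 3 h it was 0 of 44, where 0.0765% of all genes passed in either direction, and at 18 h 0 of 44, where 0.0306% passed (limma; 3 and 1 genes with an unadjusted p below 0.05). Among the chosen probe sets that of Sec63 had the largest difference at both times, with 6.22, 5.59 and 5.69 in FFPE brain and 5.98, 5.46 and 5.66 in FF brain. All its later brain arrays lay below both 0 h arrays. Its log2 difference was -0.58 at 3 h (limma, adjusted p = 0.331) and -0.43 at 18 h. The other probe sets of Sec63 lay above their 0 h array at both later times in FF brain. They had 5.60, 5.65 and 5.78, then 6.80, 6.94 and 6.89, and 6.91, 7.01 and 7.06. In FFPE brain their later arrays lay on both sides of 0 h. Hspa5 had 8.74, 9.32 and 8.84 in FFPE brain and 9.97, 10.24 and 9.90 in FF brain; it was highest at 3 h in both, with a difference of 0.43 that did not pass (adjusted p = 0.737). At 0 h the brain arrays also differed in transthyretin (Ttr), made in hepatocytes and the choroid plexus, at 5.77, 12.52 and 12.03 in FFPE brain and 8.68, 12.72 and 12.21 in FF brain; its part in the brain values was not tested. Leaving out any 1 array, the 0 h brain arrays included, also gave 0 of 44 at both times. Over both tissues, the chosen probe sets of Sec63, Spcs1 and Ssr2 were below their 0 h array on all 8 later arrays, as were 1.74% of all genes. That of Ern1 was above it on all 8, as were 1.84% of all genes, though in FFPE brain it lay below the array median. No other tested probe set of Sec63, Spcs1 or Ern1 did so.

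The difference between the tissues in the change was itself tested. At 3 h it passed for 0 of 44 genes (limma, where 0.0153% of all genes passed in either direction), and 5 had an unadjusted p below 0.05. At 18 h the liver change was lower than the brain change in 8 genes, where 3.96% of all genes passed in that direction. They were Spcs1 (-1.82), Creld2 (-1.24), Dad1 (-1.22), Sdf2l1 (-1.13), Pdia6 (-1.04), Canx (-0.86), Sec11c (-0.79) and Spcs2 (-0.79). Spcs1 passed in all 16 alternative settings, and each of the other 7 was lost in at least 1. Quantile normalization left 2 of the 8 counted, and leaving out single arrays gave 1 to 14.

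Liver had more of most of these transcripts than brain, in either preservation. In FFPE, 40 of 44 were higher in liver than in brain, where 34.5% of all genes were higher, and 2 were lower, where 29% were lower. In FF, 32 were higher, where 36.5% of all genes were higher, and 3 were lower, where 37.5% were lower. The median log2 difference was 1.72 in FFPE and 1.08 in FF, and that of all genes 0.04 in each. All 3 liver arrays lay above all 3 brain arrays for 39 of the 44 genes in FFPE and for 32 in FF, a count not made for all genes. By role, the higher genes in FFPE and FF were 11 and 9 of 12 in the translocon and signal peptidase, 6 and 4 of 6 in the oligosaccharyltransferase, 14 and 12 of 15 in folding, 3 and 2 of 5 stress regulators, and 6 and 5 of 6 in degradation. With quantile normalization the all-gene median in FF was 0.16, and 33 of the 44 were higher and 2 lower.

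**Figure D5:**
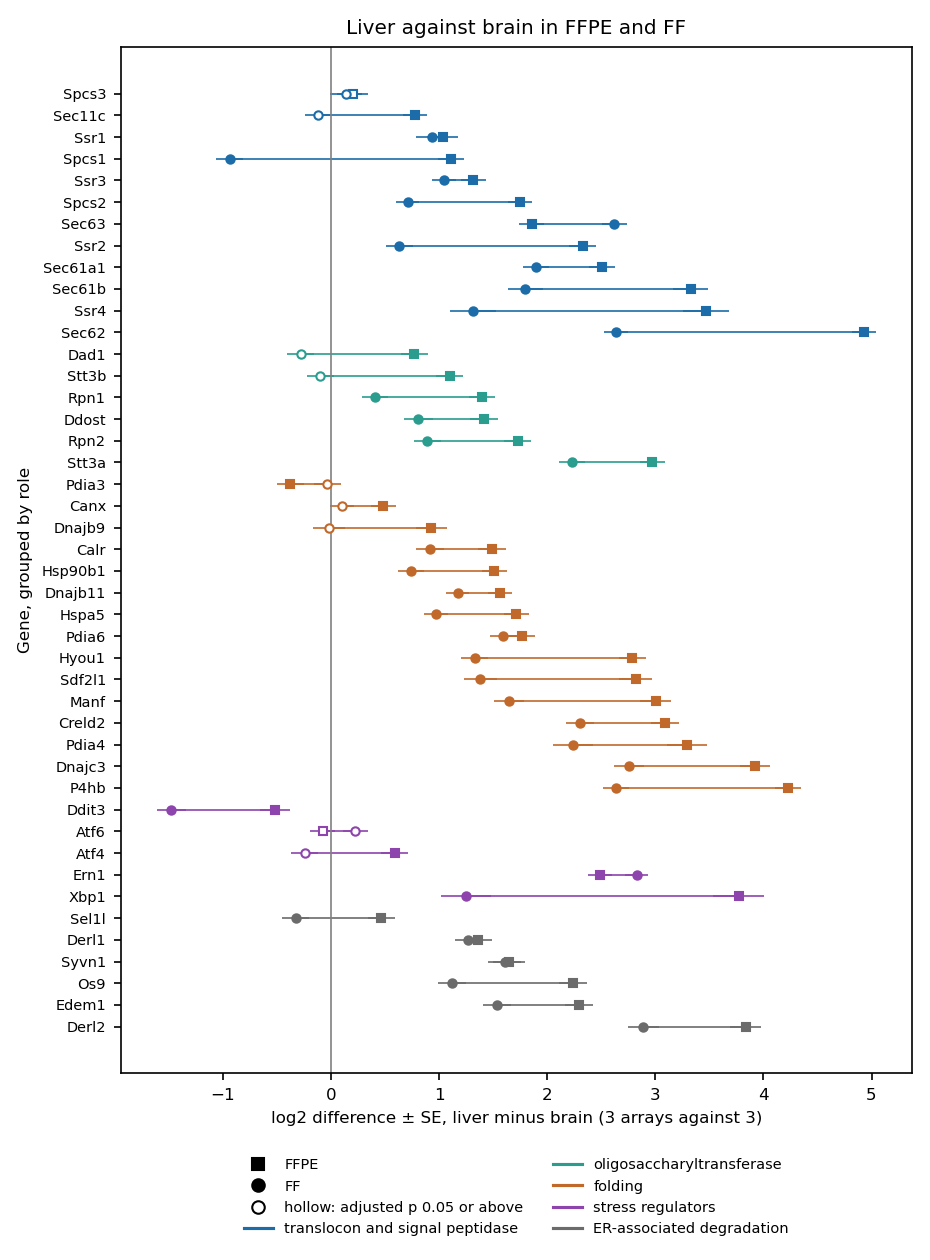
Log2 difference between liver and brain (3 arrays against 3) with its SE, for FFPE (squares) and FF (circles), coloured by role; hollow symbols did not pass. Most symbols lie right of 0, with FFPE to the right of FF for 40 of the 44; Ddit3 is left of 0 in both, and 8 genes change side between preservations, of which Spcs1 and Sel1l passed on both sides.

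P4hb, the classical disulfide isomerase, averaged 10.83 ± 0.21 in FFPE liver and 6.60 ± 0.13 in FFPE brain (SD, n = 3 times each). In FF it averaged 11.14 ± 0.09 in liver and 8.50 ± 0.06 in brain. No liver array came near a brain array. The log2 difference was 4.23 in FFPE and 2.64 in FF. Derl2 differed by 3.84 in FFPE and 2.89 in FF, and Dnajc3 by 3.92 and 2.76. Ern1 differed by 2.83 in FF. In FFPE brain Ern1 had 4.35, 4.44 and 4.38, below the array medians of 4.87 to 4.88. Its FFPE difference on the chosen probe set is therefore given as at least 2.0, against those medians. Edem1 was likewise below them on all 3 FFPE brain arrays, and its FFPE difference on the chosen probe set was at least 2.14. Another probe set of Ern1 lay closer, with 5.71, 5.55 and 6.35 in FFPE liver and 5.40, 5.40 and 5.22 in FFPE brain. A further one had 7.32, 7.05 and 6.84 in FFPE liver and 5.14, 4.94 and 5.65 in FFPE brain.

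A few genes ran the other way or did not differ. Ddit3 was lower in liver than in brain, by -0.52 in FFPE and -1.48 in FF. Spcs1 was higher in FFPE liver than in FFPE brain, by 1.11, and lower in FF liver than in FF brain, by -0.94; its FF liver mean holds the 18 h array at 7.76, and at 0 h the FF values were 9.97 in liver and 10.06 in brain. Atf6 did not pass in FFPE (-0.08) or FF (0.23), nor did Spcs3 (0.20 and 0.14). Sel1l was lower in FF liver (-0.33) and higher in FFPE liver (0.47), and its FF call was lost in 8 of 18 alternative settings, with the sign turned in 1. Sec62 differed by 4.93 in FFPE and 2.63 in FF on its chosen probe set, but another probe set passed in the opposite direction, at -0.98 and -1.73.

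FFPE arrays gave lower values than FF arrays for most of these genes, on the chosen probe sets and with the deposited values. In liver 29 of 44 were lower in FFPE, where 43.5% of all genes were lower, and 4 were higher, where 27.8% were higher: Sec61a1, Hyou1, Dnajb11 and Ddit3. In brain 39 were lower, where 53.4% of all genes were lower, and 2 were higher, where 28.4% were higher: Dnajb11 and Pdia3. The median log2 difference was -0.56 in liver (all genes -0.17) and -1.15 in brain (all genes -0.42). With quantile normalization the members' median was -0.18 in liver (all genes -0.09) and -0.49 in brain (all genes -0.11). In liver 20 were then lower, where 38.1% of all genes were lower, and 7 higher, where 30.1% were higher. In brain 25 were lower, where 43% of all genes were lower, and 6 higher, where 34.5% were higher. The split also moved with the probe sets used. With the mean of a gene's probe sets 25 were lower and 10 higher in liver (all genes 40.5% and 30%), and 34 lower and 7 higher in brain (51.2% and 29.4%). Of the 88 probe sets taken singly, 44 were lower and 21 higher in liver (all probe sets 40% and 31.3%), and 60 lower and 18 higher in brain (50% and 32.2%). By role, on the chosen probe sets, the lower genes in liver and brain were 10 and 10 of 12 in the translocon and signal peptidase, 5 and 6 of 6 in the oligosaccharyltransferase, 8 and 13 of 15 in folding, 4 and 5 of 5 stress regulators, and 2 and 5 of 6 in degradation.

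On the chosen probe sets, Xbp1 had the largest deficit in FFPE. It had 4.74, 5.22 and 4.93 in FFPE brain at 0, 3 and 18 h, against 9.18, 9.43 and 9.21 in FF brain. The FFPE brain arrays were near the array medians of 4.87 to 4.88, with the 0 h array below its own, and the groups were far apart. The difference was -1.79 ± 0.24 in liver (SE, n = 3 arrays each). In brain it was -4.31, and -4.26 with the 0 h value raised to its array median. As FFPE brain lay at the dim end of the scale, this bounds from below the deficit on this probe set, not that of the gene. The other 3 Xbp1 probe sets differed by -2.25, -1.93 and 0.73 in brain, and the last of them was higher in FFPE in liver too, by 2.34. Ssr4 differed by -1.35 in liver and -3.50 in brain, Sec61b by -1.38 and -2.91, and Spcs1 by -0.83 and -2.88. Dnajb11 was higher in FFPE on every array, by 1.16 in liver and 0.77 in brain. Genes with several probe sets passed in opposite directions between FFPE and FF in 9 cases in liver and 13 in brain.

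The FFPE deficit was larger in brain than in liver for most of these genes, on the chosen probe sets and with the deposited values. The FFPE difference in liver minus that in brain was positive and passed for 33 genes, where 36.4% of all genes passed in that direction, and negative for 1, Sec63 (-0.76), where 18.4% passed. The median was 0.83, and 0.18 for all genes. It was 2.52 for Xbp1, whose FFPE brain values lay near the array median, 2.30 for Sec62, 2.15 for Ssr4 and 2.05 for Spcs1. On the chosen probe sets all 6 oligosaccharyltransferase genes passed, at 0.61 to 1.20, but Stt3b passed in the opposite direction on another probe set. Probe sets of the same gene passed in opposite directions in 7 genes here, among them Ssr4, Stt3b and Sec63. With quantile normalization the members' median was 0.46 and that of all genes -0.00; 22 were higher, where 24% of all genes were higher, and 4 lower, where 21.8% were lower.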

How the data were processed

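Per the submitters' processing notes, the authors made the deposited log2 intensities with RMA in Affymetrix Expression Console; whether all 12 arrays were processed together, and the genome build, are not given in the sources used here. FFPE arrays had medians of 4.80 to 4.88 and FF arrays of 4.65 to 4.68. Precision is limited by the number of arrays.

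Of 45141 probe sets, 104 were controls, 28898 had 1 listed gene, 551 had several genes and 15588 had no gene. The 44 genes had 95 probe sets, at most 5 each. Genes were fitted with limma 3.58.1 in R 4.3.3: 4 means (tissue by preservation) and, per tissue, the changes at 3 h and 18 h (8 coefficients), with 4 residual degrees of freedom, two-sided, Benjamini-Hochberg over 13074 genes, threshold 0.05. All 12 arrays share 1 estimate of the spread per gene. "Fell", "rose" and "passed" mean past that threshold. The pipeline was tested on simulated data. Alternatives were quantile normalization, the mean of a gene's probe sets, no filter, fewer arrays, robust estimation, no time terms, and each array left out. Each probe set was also fitted alone, and that fit is not counted among the alternative settings.

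The members and lists were chosen with earlier results of these data known. Any member may be named; in liver at 18 h, values of all liver arrays are given for up to 4 genes per role and direction past the threshold and for the gene nearest 0 in each role, and other comparisons give fewer; Hspa5, Sec61a1, Stt3a and Ddit3 were added to these after their values were seen. From each longer list up to 4 genes past the threshold are named.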

Additional observations from a re-analysis of the deposited data

Results flagged for a closer look

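The change at 18 h differed between liver and brain in 8 of the 44 genes by a test of the difference itself (limma, adjusted p below 0.05). Of all genes tested, 4.48% passed in either direction. The liver change minus the brain change was -1.82 for Spcs1, -0.79 for Spcs2, -0.79 for Sec11c, -1.22 for Dad1, -1.04 for Pdia6, -0.86 for Canx, -1.13 for Sdf2l1 and -1.24 for Creld2.

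The difference between FFPE and FF itself differed between liver and brain in 34 genes by the same kind of test, which 54.9% of all genes passed. With quantile normalization 22 of the 44 were higher, where 24% of all genes were higher, and 4 lower, where 21.8% were lower. The extremes, as liver minus brain, were 2.52 for Xbp1, 2.30 for Sec62, 2.15 for Ssr4, 2.05 for Spcs1 and -0.76 for Sec63. Xbp1 in FFPE brain lay near the array median, below it at 0 h. The probe sets of Ssr4 and Sec63 passed in opposite directions here.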

How the results depend on the processing

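Of 206 alternative values for the counts of genes, 184 equalled the reported count or stayed within 1.5 times it, 19 were below that range and 3 above it. The 184 include counts of 0 that stayed 0. With quantile normalization, 5 genes fell in liver between 3 h and 18 h and 2 differed between tissues at 18 h; with liver arrays alone, 4 fell from 3 h to 18 h. Leaving out single arrays gave 0 to 1 genes in liver at 3 h, 10 to 18 in liver at 18 h, 2 to 15 in liver from 3 h to 18 h, and 1 to 14 for the tissue difference at 18 h. In liver at 18 h, the count was 10 without the FFPE 0 h array. From 3 h to 18 h it was 2 and 4 without the FFPE or FF liver 3 h array, 7 without the FFPE liver 18 h array, and 8 without any of the 4 brain arrays of 0 h and 18 h. For the tissue difference at 18 h it was 1 without the FFPE brain 0 h, FFPE brain 18 h or FF brain 18 h array, 3 without the FF brain 0 h or FFPE liver 0 h array, 4 without either 3 h brain array, 5 without the FF liver 0 h array and 14 without the FF liver 18 h array. In liver at 3 h it was 1 without either liver 18 h array. The cause was not tested. Calls that held in every setting numbered 9 of 19 in liver at 18 h (Spcs1, Spcs2, Ssr2, Dad1, Pdia6, Canx, Sdf2l1, Dnajb11 and Creld2). These settings do not include the fits of single probe sets. Another probe set of Pdia6 had 4.55, 4.66 and 4.58 in FFPE liver and 5.03, 5.09 and 5.15 in FF liver. That of Spcs2 had 7.88, 7.61 and 6.75 in FFPE liver and 9.2, 8.97 and 9.13 in FF liver. Spcs1 and Canx fell on both of their tested probe sets. Calls that held in every setting were 17 of 33 and 24 of 41 for FFPE in liver and brain, and 36 of 42 and 32 of 35 for tissue in FFPE and FF. No paired analysis was possible because the groups compared share only replicate number 1; the fit itself compares arrays within each series and at matched times.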
